A study of Drosophila melanogaster with 4 samples.

Results

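The nuclear and somatic piRNA factors described here are 10 genes chosen by symbol, of 17494 in the count table, and matched to it by FlyBase identifier. They are piwi, SoYb, fs(1)Yb, armi, zuc, vret, mael, rhi, del and cuff, the nuclear Argonaute, the Yb-body and biogenesis proteins and the cluster transcription factors of the piRNA pathway. The list was drawn up with results of this same contrast already known, so the fold changes and p-values below describe these genes and give no independent support for a pattern among them. RNA was measured by RNA-seq in wing disc-associated myoblasts, the precursor cells of the adult flight muscle, of Drosophila melanogaster at 0 hours after puparium formation. The Antp RNAi group (2 libraries, replicates 1 and 2) expressed a hairpin against Antennapedia (Antp, a Hox gene) under Mef2-Gal4. The control group (2 libraries, replicates 2 and 3) expressed a hairpin against yellow (y, a pigmentation gene) under the same driver.

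Both groups carried a GFP transgene and grew at 29 °C. The labels name that transgene UAS-GFPnls in one field and UAS-GFP::Gma in another, and call the control y RNAi in one field and WT in another. Per the study, the Antp hairpin was a KK line, a type of insertion on the second chromosome. Hairpin, insertion and strain background therefore cannot be told apart between the groups. Mef2-Gal4 is a muscle driver that the study describes as active in these myoblasts from the third larval instar. Each sample pooled 30 to 35 discs, from which 50000 cells were sorted on GFP, size and viability. The labels speak of biological replicates and the study's methods of technical replicates of 1 sample, so each p-value covers the spread between these libraries only.

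PIWI-interacting RNAs (piRNAs) are small RNAs that guide PIWI-clade Argonaute proteins to transposon transcripts. Somatic support cells of the ovary cut long precursor transcripts into piRNAs near Yb bodies and at the mitochondrial surface, and load them onto Piwi, which enters the nucleus and directs silent chromatin to transposons. Germline cells also transcribe heterochromatic piRNA clusters through the Rhino, Deadlock and Cutoff proteins. The pathway is best known from gonads, and several of its genes are little expressed in most other tissues.

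The libraries held 42110502 and 46817694 counts in Antp RNAi myoblasts and 53082579 and 53957914 counts in control myoblasts. After the filter on low counts edgeR tested 10360 genes by quasi-likelihood, and all 10 piRNA factors were among them. The myoblast marker twi was abundant in every library. It had 117120 and 112531 counts in Antp RNAi, against 135223 and 119375 counts in control, and of 10 myoblast markers 1, ct, had an adjusted p under 0.05 in edgeR and limma-voom (log2 fold change -0.86), 2 (ct and zfh1) did with DESeq2, and 5 had an unadjusted p under 0.05 in edgeR. Antp had 5723 and 6629 counts in Antp RNAi myoblasts and 10214 and 9356 counts in control myoblasts, a log2 fold change of -0.38 ± 0.11 (SE) that did not pass the test (adjusted p = 0.145, edgeR). The other hairpin's target, y, had 382 and 365 counts in Antp RNAi and 0 in both control libraries.

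Of the 10 factors, 9 had a log2 fold change above 0, beside 4920 of the 10360 genes tested. The median over the 10 factors was 0.72, beside -0.012 over all genes tested. In 6 of them (piwi, SoYb, armi, mael, rhi and del) both Antp RNAi libraries lay above both control libraries in CPM (a depth-scaled count, with library sizes adjusted by edgeR's trimmed-mean factors, TMM), and 18.6% of all genes tested did the same. At an adjusted p under 0.001 in edgeR, the cutoff that the study applied with DESeq2, 1 of the 10 was called, del. Over all genes tested 0.463% were called in either direction and 0.203% as higher. Under the looser 0.05 in edgeR, piwi, SoYb and del passed, all higher in Antp RNAi, beside 2.58% of all genes in either direction and 1.36% higher. With DESeq2 at 0.001, SoYb and del were called, beside 2.12% of the 11147 genes to which DESeq2 gave an adjusted p. With DESeq2 at 0.05, piwi, SoYb, mael and del passed, beside 4.13%. In bulk RNA, more cells that express a gene and more RNA per cell cannot be told apart.

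**Figure D1:**
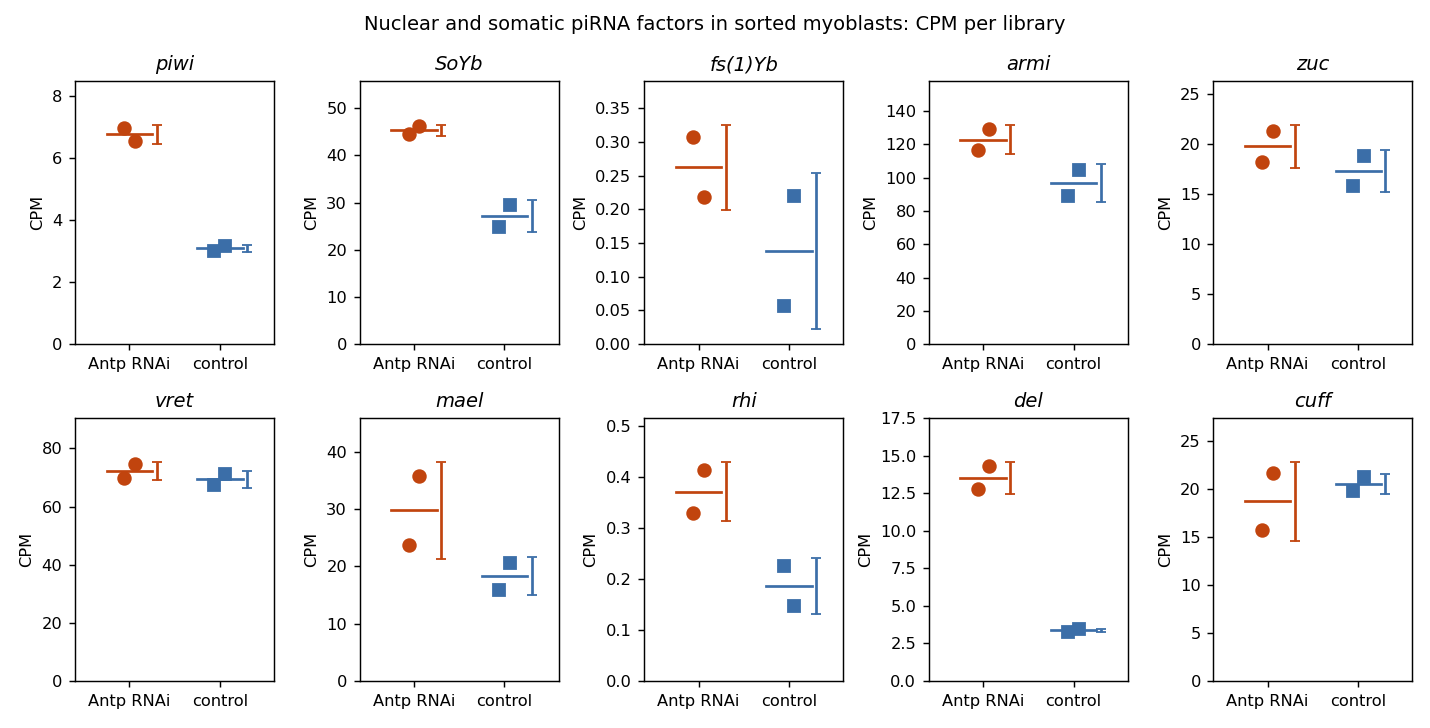
Each panel plots 1 gene's CPM in each library on a linear axis that starts at 0, with Antp RNAi (2 circles) left of control (2 squares), a line at the group mean and a bar of 1 SD to either side. The groups are wide apart for del (12.8 and 14.3 CPM in Antp RNAi, against 3.27 and 3.45 CPM in control) and piwi, and overlap for fs(1)Yb, zuc, vret and cuff.

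piwi (FBgn0004872) encodes the Argonaute that carries piRNAs into the nucleus and gives the pathway its name. It lies on chromosome 2L at 10982205 to 10987420 on the minus strand (dm6), with 3073 bases of exon. It had 296 and 301 counts in Antp RNAi, against 160 and 173 counts in control, which is 6.98 and 6.55 CPM against 3.01 and 3.18 CPM. Both Antp RNAi libraries stood above both control libraries, and the gap between the groups was far wider than the gap within either. The mean was 6.76 ± 0.307 CPM in Antp RNAi and 3.09 ± 0.116 CPM in control (SD, n = 2 libraries each), and the log2 fold change was 1.13 ± 0.21 (SE; 95% interval 0.64 to 1.61). The adjusted p was 0.0311 (edgeR), so piwi passed 0.05 and not 0.001. With DESeq2 its adjusted p was 0.00195. Leaving out each library in turn gave log2 fold changes of 1.09 to 1.19, all with an adjusted p under 0.05.

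The 3′ end of piwi shares 191 bases, 6.22% of its exon length, with SCAR on the opposite strand. SCAR, an activator of actin branching, had 4860 and 5185 counts in Antp RNAi and 5860 and 6069 counts in control, many times the counts of piwi. Its log2 fold change was 0.04 ± 0.099 (adjusted p = 0.946, edgeR). How the counting treated strand and shared bases is not given in the sources used here, so the piwi counts are uncertain to that extent. The part of SCAR reads in the piwi difference was not tested.

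SoYb (FBgn0051755, Sister of Yb) encodes a Tudor-domain relative of Yb that acts in piRNA biogenesis. It lies on chromosome 2L at 9996706 to 10002736 on the minus strand, about 1 megabase from piwi. It had 1886 and 2120 counts in Antp RNAi, against 1317 and 1606 counts in control, or 44.5 and 46.1 CPM against 24.8 and 29.5 CPM. The Antp RNAi libraries lay close together and above both control libraries, which were further apart from each other. The mean was 45.3 ± 1.15 CPM in Antp RNAi and 27.1 ± 3.32 CPM in control (SD, n = 2 libraries each), a log2 fold change of 0.74 ± 0.13 (adjusted p = 0.0228, edgeR). With DESeq2 the adjusted p was 5.46e-05. Without control replicate 2, the lower of the control libraries, the log2 fold change was 0.64 and the adjusted p 0.184. SoYb sits within the span of CG31875 on the same strand and shares 247 bases (5.03% of its exon length) with it. The log2 fold change of CG31875 was 0.31 ± 0.21.

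fs(1)Yb (FBgn0000928) encodes Yb, the protein around which Yb bodies form in ovarian somatic cells. Its locus is on chromosome X at 2720468 to 2724158 on the plus strand and shares no exon base with another gene. It was near the limit of detection, with 13 and 10 counts in Antp RNAi, against 3 and 12 counts in control. The libraries overlapped, and summed over each group the counts were 23 in Antp RNAi (exact Poisson 95% interval 14.6 to 34.5) and 15 in control (8.39 to 24.7). The log2 fold change was 0.90 ± 0.76 (adjusted p = 0.777, edgeR), and no difference was detectable at this depth. Without 1 library it ranged from 0.26, without control replicate 2, to 2.17, without control replicate 3.

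armi (FBgn0041164) encodes Armitage, an RNA helicase that hands piRNA precursors to the processing machinery. It is on chromosome 3L at 3461317 to 3466303 on the plus strand. It had 4939 and 5932 counts in Antp RNAi, against 4714 and 5705 counts in control, or 116 and 129 CPM against 88.7 and 105 CPM. The groups did not overlap, but the lower Antp RNAi library and the higher control library were closer to each other than the libraries within either group. The log2 fold change was 0.34 ± 0.12 (adjusted p = 0.277, edgeR). With 1 library left out it ran from 0.25, without control replicate 2, to 0.48, without control replicate 3.

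zuc (FBgn0261266) encodes Zucchini, the mitochondrial endonuclease that cuts piRNA precursors, and vret (FBgn0263143) encodes Vreteno, a Tudor-domain partner of Armitage and the Yb proteins. zuc is a single-exon gene on chromosome 2L at 11988735 to 11989882, and vret lies on chromosome 3R at 22742954 to 22745581, both on the minus strand. zuc had 774 and 979 counts in Antp RNAi and 841 and 1026 counts in control, or 18.3 and 21.3 CPM against 15.8 and 18.8 CPM. vret had 2964 and 3425 counts in Antp RNAi and 3579 and 3883 counts in control, or 69.9 and 74.5 CPM against 67.4 and 71.3 CPM. Both genes overlapped between the groups. The log2 fold changes were 0.19 ± 0.16 for zuc (adjusted p = 0.767, edgeR; 95% interval -0.17 to 0.55) and 0.06 ± 0.11 for vret (adjusted p = 0.914; interval -0.18 to 0.30). On the opposite strand, zuc shares 67 bases (5.84% of its exon length) with CG34163, and vret 128 bases (5.50%) with CG6985.

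mael (FBgn0016034) encodes Maelstrom, an HMG-box protein required for silencing once Piwi has found its target. The gene is on chromosome 3L at 22721203 to 22726234 on the plus strand. It had 1007 and 1645 counts in Antp RNAi, against 846 and 1124 counts in control, or 23.8 and 35.8 CPM against 15.9 and 20.6 CPM. The groups did not overlap, but the Antp RNAi libraries differed more from each other than the lower of them did from the nearest control library. The log2 fold change was 0.70 ± 0.21 (adjusted p = 0.178, edgeR). With DESeq2 it was 0.72 and the adjusted p 0.01998, so whether mael passed 0.05 depended on the tool. In edgeR it also depended on the libraries used: 0.97 (adjusted p = 0.00175) without Antp RNAi replicate 1, 0.91 (adjusted p = 0.0166) without control replicate 3, 0.55 (adjusted p = 0.467) without control replicate 2 and 0.40 (adjusted p = 0.124) without Antp RNAi replicate 2. mael shares 246 bases, 11.4% of its exon length, with CG14451 on the opposite strand, a gene of 29 to 75 counts per library. The log2 fold change of CG14451 was 0.97 ± 0.43 (adjusted p = 0.448, edgeR), and its groups did not overlap. The part of CG14451 reads in the mael difference was not tested.

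rhi (FBgn0004400) encodes Rhino, the chromodomain protein that marks germline piRNA clusters. It lies on chromosome 2R at 17628491 to 17633516 on the minus strand. It had 14 and 19 counts in Antp RNAi, against 12 and 8 counts in control. The groups did not overlap in CPM. The summed counts were 33 in Antp RNAi (exact Poisson 95% interval 22.7 to 46.3) and 20 in control (12.2 to 30.9). These sums are not scaled for the greater depth of the control libraries, so their intervals do not test a difference. The log2 fold change was 0.99 ± 0.59 (adjusted p = 0.637, edgeR). It sits within the span of CG10936 without sharing an exon with it.

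del (FBgn0086251) encodes Deadlock, the adaptor that links Rhino to Cutoff and to the transcription start factor Moonshiner. It lies on chromosome 2L at 21145137 to 21148546 on the minus strand, with 3292 bases of exon. It had 542 and 657 counts in Antp RNAi, against 174 and 188 counts in control, or 12.8 and 14.3 CPM against 3.27 and 3.45 CPM. Both control libraries were close together, and both Antp RNAi libraries lay far above them. The mean was 13.5 ± 1.07 CPM in Antp RNAi and 3.36 ± 0.125 CPM in control (SD, n = 2 libraries each). del rose 4.02-fold, a log2 fold change of 2.01 ± 0.18 (95% interval 1.59 to 2.42; adjusted p = 9.07e-04, edgeR), and it ranked 36 of 10360 genes by adjusted p.

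The call for del sat close to the threshold of 0.001 although the size of its change was stable. Under 3 other scalings and 3 other filters, DESeq2 and limma-voom, its log2 fold change stayed between 1.99 and 2.02. The adjusted p was above 0.001, at 0.00103 to 0.00137, under median-of-ratios or upper-quartile scaling, a filter of 100 counts on average and limma-voom. It was 5.41e-16 with DESeq2. Without each library in turn the log2 fold change was 1.94 to 2.09 and the adjusted p at most 1.11e-04. del shares 10 bases, 0.304% of its exon length, with CG9253 on the opposite strand, whose log2 fold change was 0.28 ± 0.099.

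cuff (FBgn0260932) encodes Cutoff, which keeps germline cluster transcripts from ending early and works in 1 complex with Rhino and Deadlock. Its locus is on chromosome 2R at 11886067 to 11887603 on the plus strand. Of the 10 factors it alone had a log2 fold change below 0. It had 668 and 994 counts in Antp RNAi, against 1050 and 1156 counts in control, or 15.8 and 21.6 CPM against 19.8 and 21.2 CPM. Both control libraries lay between the Antp RNAi libraries. The log2 fold change was -0.13 ± 0.17 (95% interval -0.53 to 0.27; adjusted p = 0.880, edgeR), and it was 0.08 without Antp RNAi replicate 1. cuff shares 36 bases with ERp60, a far more abundant gene on the opposite strand with 52587 and 61287 counts in Antp RNAi and 73175 and 74142 counts in control. Of the 3 partners of the Rhino complex, del passed the test. rhi, with only 8 to 19 counts per library, did not pass, and cuff overlapped between the groups.

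**Figure D2:**
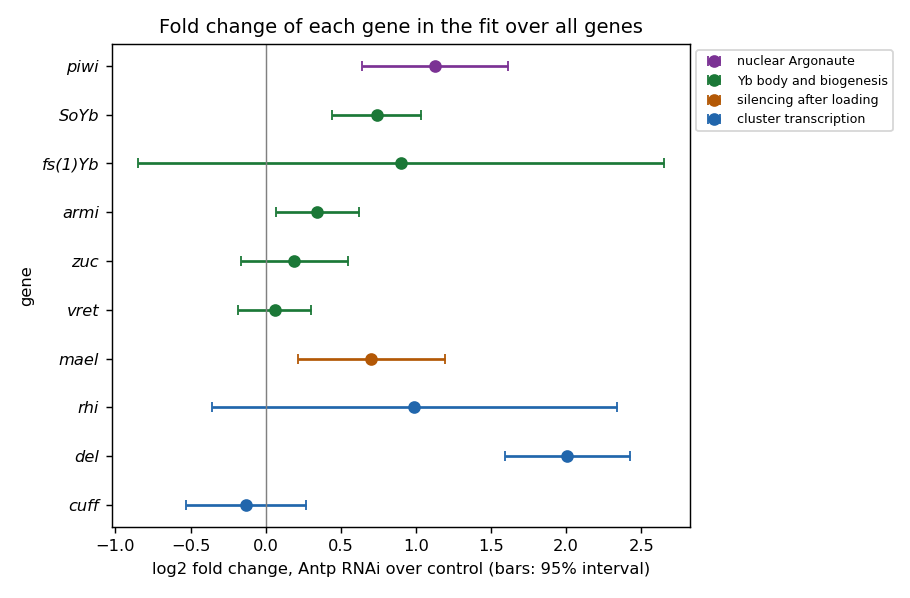
The plot gives each gene's log2 fold change (points, Antp RNAi over control) with its 95% interval (bars) from the edgeR fit over 10360 genes, ordered and coloured by role. The intervals of piwi, SoYb, armi, mael and del lie above 0 before adjustment, and those of fs(1)Yb and rhi, with at most 19 counts per library, are the widest.

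Levels were compared between genes only as CPM per kilobase of exon. In control myoblasts the order was fs(1)Yb (0.0395 ± 0.0331), rhi (0.119 ± 0.0356), piwi (1.01 ± 0.0379), del (1.02 ± 0.0379), SoYb (5.53 ± 0.676), mael (8.49 ± 1.55), zuc (15.1 ± 1.85), cuff (15.8 ± 0.797), armi (23.3 ± 2.73) and vret (29.8 ± 1.19; SD, n = 2 libraries each). piwi and del did not differ beyond their spread there, nor did zuc and cuff. In Antp RNAi myoblasts del (4.11 ± 0.324 CPM per kilobase) stood apart from piwi (2.20 ± 0.0998), while mael (13.8 ± 3.95), cuff (14.4 ± 3.20) and zuc (17.2 ± 1.87) did not separate, nor did armi (29.6 ± 2.14) and vret (31.0 ± 1.40). The control levels of fs(1)Yb and rhi were at percentiles 0.695 and 3.53 of all genes tested, those of piwi and del near percentile 21, and that of vret at percentile 69.8. The biogenesis factors zuc and armi were at percentiles 52.3 and 63.3.

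**Figure D3:**
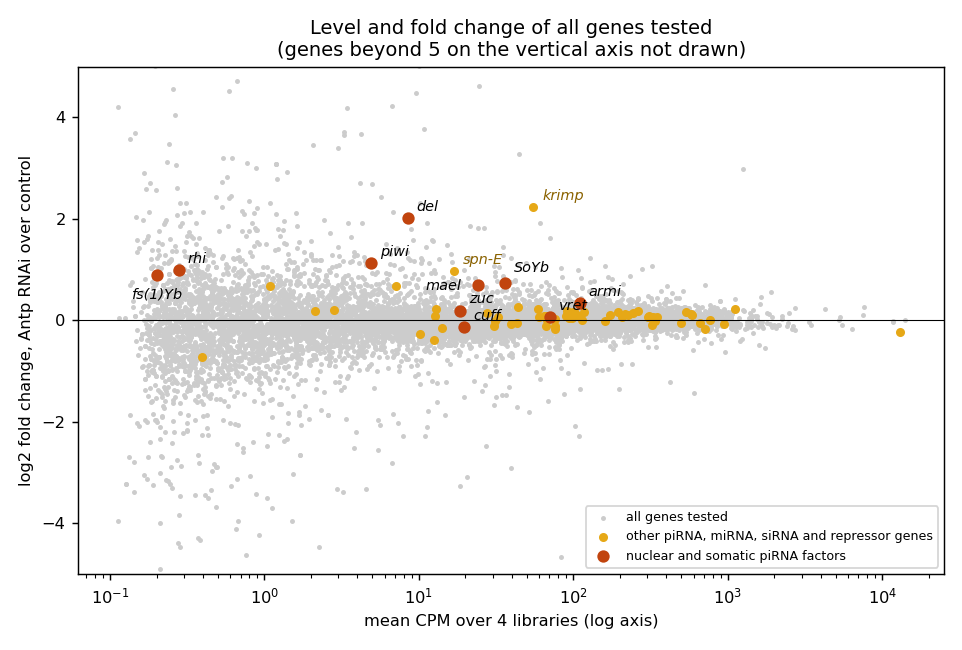
Each point is a gene, with its log2 fold change (vertical axis, Antp RNAi over control) against its mean CPM over the 4 libraries (log axis). The 10 piRNA factors (large points) and other small-RNA genes (medium points) are overlaid on all genes tested: krimp and del lie above 2, rhi and fs(1)Yb lie at the low-count end where the cloud of all genes is widest, and 23 genes beyond 5 on the vertical axis are not drawn.

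The other genes of the pathway were taken as lists. Lists of nuclear silencing, biogenesis, cluster transcription, miRNA and siRNA genes and germline repressors each had 0 genes with an adjusted p under 0.05 by edgeR, DESeq2 or limma-voom, and 1 gene in all, arx, had an unadjusted p under 0.05 in edgeR. Of the 12 partners of Piwi in nuclear silencing, all 12 were tested, with a median log2 fold change of -0.025. arx, a piRNA cofactor of Piwi, had 425 and 535 counts in Antp RNAi, against 691 and 837 counts in control. Its groups did not overlap, with a log2 fold change of -0.39 ± 0.17 (adjusted p = 0.424, edgeR). The 10 other biogenesis and loading factors had a median of 0.03. BoYb (Brother of Yb), the remaining gene of the Yb family, had 10.3 and 7.13 CPM in Antp RNAi, against 3.90 and 6.96 CPM in control, and its log2 fold change of 0.68 ± 0.30 did not pass the test (adjusted p = 0.443). Of 13 genes of cluster transcription and export 12 were tested, with a median of 0.09. The remaining one, moon, which encodes Moonshiner, had 0 and 1 counts in Antp RNAi and 1 and 0 counts in control. The flamenco locus (flam), the main piRNA source of ovarian somatic cells, had 20 and 6 counts in Antp RNAi, against 25 and 28 counts in control (log2 fold change -0.72 ± 0.65, adjusted p = 0.798).

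Of 11 nuage and ping-pong genes, which act in germline cytoplasm, 9 were tested and 2 passed 0.05, both higher, with edgeR, DESeq2 and limma-voom alike. krimp, a Tudor-domain scaffold that brings the ping-pong partners Aubergine and AGO3 together, had 3753 and 4291 counts in Antp RNAi, against 861 and 1233 counts in control. Its groups did not overlap, and its log2 fold change was 2.23 ± 0.16 (adjusted p = 3.67e-04, edgeR). spn-E, a nuage helicase, had 855 and 1126 counts in Antp RNAi, against 602 and 628 counts in control, with a log2 fold change of 0.97 ± 0.15 (adjusted p = 0.0156). The Argonautes of the ping-pong cycle did not pass: aub had 568 and 668 counts in Antp RNAi against 770 and 512 counts in control, and AGO3 had 54 and 65 counts against 37 and 54 counts. The germline helicase vas had 6 and 18 counts in Antp RNAi and 9 and 6 counts in control.

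The 10 miRNA and siRNA genes, whose siRNA members process hairpins such as those of both groups, had a median log2 fold change of 0.09. The lowest adjusted p among them was that of gw, a partner of AGO1 in miRNA silencing (0.22 ± 0.0998, adjusted p = 0.462, edgeR). The 11 repressors of germline genes in somatic cells had a median of 0.08. l(3)mbt, whose loss in larval brain and ovarian somatic cells is known to switch on piRNA genes, had 3944 and 4551 counts in Antp RNAi, against 4426 and 4673 counts in control (log2 fold change 0.18 ± 0.10, adjusted p = 0.604, edgeR).

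Markers of other cell types were read beside these values. Of 10 germline markers 6 were tested and 0 passed 0.05 by edgeR, DESeq2 or limma-voom, nor did any reach an unadjusted p under 0.05 in edgeR. Their summed level was 21.6 to 23.3 CPM in Antp RNAi and 22.1 to 22.4 CPM in control, and osk had 1 and 0 counts against 3 and 0 counts. The 7 gonadal somatic markers, 2 of them tested and 0 passing in the same way, summed to 3.22 to 3.75 CPM in Antp RNAi and 3.01 to 3.73 CPM in control, with tj, their defining factor, at 0 in both Antp RNAi libraries and at 1 and 0 counts in control. Of 9 hemocyte markers 6 were tested and 2 passed 0.05 in edgeR, both lower. Pxn had 296 and 262 counts in Antp RNAi, against 9015 and 8222 counts in control. NimC1 had 1 and 1 counts, against 44 and 45 counts. The other markers tested did not pass, with log2 fold changes of -0.06 for Col4a1, 0.01 for vkg, 0.04 for crq and -0.96 for srp. Hml had 0 and 0 against 10 and 0 counts. The list summed to 325 to 349 CPM in Antp RNAi and 477 to 519 CPM in control. Pxn alone had a mean of 6.34 CPM in Antp RNAi and 160 CPM in control. Of 8 fat body markers 3 were tested and 1 rose, apolpp, with 1121 and 564 counts in Antp RNAi against 22 and 42 counts in control, while Lsp2 and Fbp1 were at 0 in all 4 libraries and the list summed to 45.2 to 71.7 CPM in Antp RNAi and 40.03 to 46.28 CPM in control. Of 8 tracheal markers 1 passed 0.05, Gasp (log2 fold change -2.51, adjusted p = 0.0227, edgeR), and the list summed to 29.4 to 31.5 CPM in Antp RNAi and 33.6 to 36.4 CPM in control. Gasp alone had a mean of 1.13 CPM in Antp RNAi and 6.48 CPM in control. Of these 8 markers, 6 had a log2 fold change above 0, and the median was 0.21. An unadjusted p under 0.05 in edgeR was reached by 3 of them, bnl higher and Gasp and verm lower. Of 10 disc epithelium markers 0 passed by any of the 3 tools. In edgeR 3 had an unadjusted p under 0.05, nub and dl higher and shg lower. Of the 10, 6 had a log2 fold change above 0, and the median was 0.36. The list summed to 1550 to 1740 CPM in Antp RNAi and 1777 to 1898 CPM in control. Most of that sum came from sd, shg and ap, with log2 fold changes of -0.03, -0.36 and -0.09. The part of RNA from other cell types in the differences of piwi, SoYb and del was not tested.

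Genes beside the 10 factors were read in the same fit. Of the 20 nearest tested neighbours, 1 on each side of each factor, 0 passed 0.05 in edgeR or limma-voom, 1 (CG13185) passed with DESeq2, and 3 had an unadjusted p under 0.05 in edgeR. Their log2 fold changes ran from -0.34 (CG12253, beside piwi) to 1.85 (CG10936, around rhi; adjusted p = 0.305). The neighbour with the lowest adjusted p was CG13185 beside cuff (0.53 ± 0.11, adjusted p = 0.0589, edgeR). Within 50 kb, a window set after the values were seen, 0 of 17 other genes around piwi, 0 of 18 around SoYb and 0 of 23 around del passed 0.05 in edgeR. Of these, 0, 3 and 2 had an unadjusted p under 0.05, and 0, 1 and 1 passed 0.05 with DESeq2. The 3 factors under 0.05 in edgeR lie on chromosome arm 2L, where 61 of 1797 genes tested passed 0.05 in the same fit (3.39%). The share was 2.645% on 2R, 2.60% on 3L, 2.59% on 3R, 1.64% on X and 2.22% on chromosome 4. mael, which passed 0.05 only with DESeq2 on all 4 libraries, lies on 3L, and zuc, also on 2L, had a log2 fold change of 0.19. tio, at 22019208 to 22025734 on 2L and known as the gene beside a landing site of KK insertions, had 165 and 89 counts in Antp RNAi, against 732 and 529 counts in control (log2 fold change -2.01, adjusted p = 0.0176). The part of the insertion and of the second-chromosome background in the differences of piwi, SoYb and del was not tested.

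The genes themselves differ in size and in their nearest transposons. Their longest annotated coding sequences run from 253 codons in zuc to 1476 in SoYb, with 843 in piwi and 981 in del (annotation release 115, where 9 of the 10 have the same span as in the count table). Of 5896 annotated transposon copies, at least 1 overlaps the span of piwi and at least 1 that of mael, and the copy nearest to del lies 717 bases away. The copies nearest to SoYb and zuc are 15864 and 77503 bases away.

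**Figure D4:**
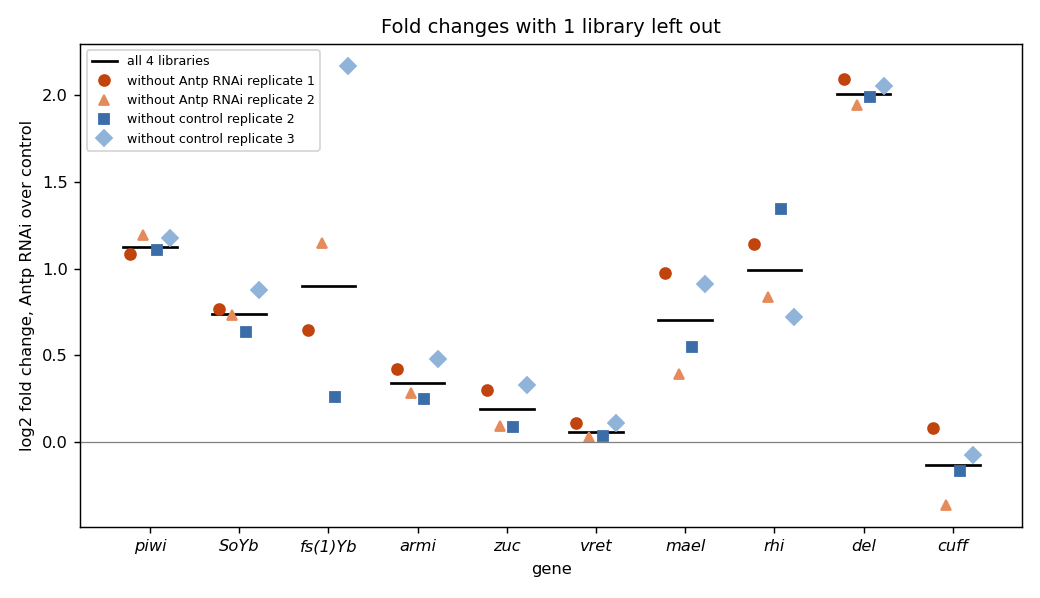
The plot gives each gene's log2 fold change (Antp RNAi over control) with all 4 libraries (lines) and with each library left out in turn (points; circles and triangles without Antp RNAi replicate 1 or 2, squares and diamonds without control replicate 2 or 3). del stays between 1.94 and 2.09 and piwi between 1.09 and 1.19, mael moves between 0.40 and 0.97 with the Antp RNAi library, and cuff crosses 0.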

How the data were processed

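The members and gene lists were chosen with earlier results of these data known. Deposited values were whole-number counts per gene over exons, which the authors made with featureCounts of Subread on the dm6 genome after bcl2fastq 2.17.1.14, per the submitters' processing notes. The aligner and the strand setting are not given in the sources used here. A second deposited table holds the authors' DESeq2 1.34 comparison: a signal column (mean of normalized counts), log2 fold changes with errors, and p-values. Only its gene symbols were used. cDNA from 2 ng of RNA was amplified over 10 PCR cycles and libraries over 12, with no molecular identifiers, so the Poisson intervals and the count floor cover counting error only. The intervals of log2 fold changes come from the fit and cover the spread between these libraries.

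Groups came from the sample titles. Counts were tested two-sided with edgeR 4.0.16 (glmQLFit, glmQLFTest; filterByExpr with a minimum count of 10; TMM) in R 4.3.3, with Benjamini-Hochberg adjustment over 10360 genes. The SE is the size of the log2 fold change over the square root of F. The common variation between libraries of a group beyond counting error, as fitted by edgeR, was 13.2%. Library totals were 42110502 and 46817694 counts in Antp RNAi and 53082579 and 53957914 in control, so that a floor of 3 counts was 0.0551 to 0.0708 CPM. Alternatives were 3 other scalings, 3 other filters, DESeq2 1.42.0, limma-voom (limma 3.58.1), other thresholds and leaving out each library, when the lone sample of a group was assumed to vary like the other group. The fits were tested on simulated data. Named were all 10 members, list genes with an adjusted p under 0.05 or otherwise at most the lowest 2 of a list, the hairpin targets, and further genes (moon, aub, AGO3, vas, tio, markers, neighbours and overlapping genes) chosen after their values were seen. Promoter motifs were not searched.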

Additional observations from a re-analysis of the deposited data

How the results depend on the processing

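At an adjusted p under 0.001, 1 of the 10 factors was called, del. The number was 0 with median-of-ratios size factors, upper-quartile scaling, a mean of at least 100 counts or limma-voom, 2 with DESeq2 (SoYb and del) and 3 at an adjusted p under 0.05. With DESeq2 at 0.05, an alternative added after seeing the data, it was 4 (mael as well). It was 1 with library totals, with every gene of at least 1 count, with a mean of at least 10 counts, at 0.01, and without each library in turn (range 1 to 1). del then had log2 fold changes of 2.02 with median-of-ratios size factors, 1.99 with upper-quartile scaling, 2.01 with a mean of at least 100 counts and 2.01 with limma-voom. SoYb passed 0.001 with DESeq2 at 0.75. Of the other pathway genes 1 was called, krimp, and 2 with DESeq2, krimp and spn-E. In alternatives run on these lists after seeing the data, leaving out 1 library gave 1 to 3 calls, the 3 (krimp, spn-E and Hsp83) without Antp RNAi replicate 1, and the other scalings, filters and limma-voom each gave 1. Leaving out 1 library gave log2 fold changes of 0.64 to 0.88 for SoYb, 0.25 to 0.48 for armi, 0.09 to 0.33 for zuc, 0.03 to 0.11 for vret, 0.72 to 1.34 for rhi and -0.36 to 0.0831 for cuff, whose sign turned (0.0831) without Antp RNAi replicate 1. The causes were not tested. Over the scalings, all genes tested had a median between -0.029 and 0.0016 (log2 fold change), and this median was 0.011 without control replicate 2. fs(1)Yb had too few counts for both stricter filters, and rhi for the stricter of them. No paired analysis was possible because only the number 2 occurs in both groups.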
